A study of Homo sapiens with 6 samples.

Results

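Interferon-stimulated genes are the genes that a cell switches on when it senses interferon, and the 46 described here were taken by gene symbol from a table of 21512 gene rows; all 46 were found. They comprise 4 RNA sensors, 6 signalling and transcription factors, 4 2-5A synthetases, 4 IFIT and 3 IFITM proteins, 5 members of the ISG15 system, 11 other antiviral effectors and 9 other interferon-induced genes. Their mRNA was measured by RNA sequencing in 6 libraries of human prostate cancer cells. BicR cells were given the androgen dihydrotestosterone (DHT, 10 nM), the antiandrogen bicalutamide (1 µM) or the ethanol vehicle for 24 h, and LNCaP cells were given the same 3 treatments. The LNCaP line is long established and responds to androgens, whereas the labels give no derivation for BicR. All 6 cultures had first spent 3 days in phenol red-free medium with 2.5% charcoal/dextran-stripped serum, which is depleted of steroids. Each combination of line and treatment had 1 library, and no label tells whether libraries came from separate cultures. The spread behind every p-value is thus what line and treatment leave unexplained between libraries. For each gene it was moderated by the spread of all genes tested. The unexplained spread includes any difference between the lines in their response to a treatment, and the remainder may be technical.

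Type I interferons bind the IFNAR1 and IFNAR2 receptor chains, and the kinases JAK1 and TYK2 then phosphorylate STAT2 and other signalling proteins. STAT2 joins IRF9 in a complex that binds the interferon-stimulated response element (ISRE) in promoters, while interferon gamma acts at a separate element, GAS. Cytosolic sensors of viral RNA such as the DDX58 product RIG-I can start interferon production, and many sensors and signalling factors are themselves interferon-stimulated. The products degrade viral RNA, block its translation or interfere with virus entry and budding.

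Type I interferon acts on promoters through the ISRE, so the promoter sequence is shown for 3 neighbouring IFIT genes and for IFI6, which held 3 matches. Capitals mark each match to the ISRE-like pattern of GAAA, any 2 bases and GAAA again, or to its reverse complement (TTTC, any 2 bases, TTTC), and the windows run from 250 bases before to 50 bases after the annotated start. The sequences are from RefSeq (GRCh38.p14): IFIT1 at chr10:89392373-89392672 on the plus strand, IFIT3 at chr10:89327747-89328046 on the plus strand, IFIT5 at chr10:89414318-89414617 on the plus strand and IFI6 at chr1:27672143-27672442 on the minus strand, each written along its gene.
IFIT1: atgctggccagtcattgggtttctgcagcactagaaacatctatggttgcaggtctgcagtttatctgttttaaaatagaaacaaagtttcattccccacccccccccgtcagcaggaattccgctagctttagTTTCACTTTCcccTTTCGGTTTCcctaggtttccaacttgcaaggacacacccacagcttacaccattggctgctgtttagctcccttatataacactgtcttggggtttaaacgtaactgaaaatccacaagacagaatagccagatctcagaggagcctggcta
IFIT3: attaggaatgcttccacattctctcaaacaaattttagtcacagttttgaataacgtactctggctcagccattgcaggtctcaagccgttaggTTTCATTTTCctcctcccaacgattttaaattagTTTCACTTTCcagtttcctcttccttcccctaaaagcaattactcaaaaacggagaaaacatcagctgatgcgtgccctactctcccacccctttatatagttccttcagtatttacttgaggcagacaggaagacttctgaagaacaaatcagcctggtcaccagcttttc
IFIT5: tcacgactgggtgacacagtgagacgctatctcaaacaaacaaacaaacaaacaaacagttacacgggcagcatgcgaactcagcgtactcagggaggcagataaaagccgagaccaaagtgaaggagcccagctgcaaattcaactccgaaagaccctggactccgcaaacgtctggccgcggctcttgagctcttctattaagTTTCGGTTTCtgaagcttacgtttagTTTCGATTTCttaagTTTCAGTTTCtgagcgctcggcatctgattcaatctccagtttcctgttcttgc
IFI6: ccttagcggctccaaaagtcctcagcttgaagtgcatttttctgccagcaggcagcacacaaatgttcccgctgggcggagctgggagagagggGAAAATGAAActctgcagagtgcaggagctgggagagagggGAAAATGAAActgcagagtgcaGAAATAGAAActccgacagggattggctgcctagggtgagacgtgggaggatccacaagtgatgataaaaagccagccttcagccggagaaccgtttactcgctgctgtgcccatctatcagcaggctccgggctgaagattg

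IFIT1 and IFIT3 held 2 matches each, and IFIT5 and IFI6 held 3 each. Of the 46 genes, 37 had a promoter in the RefSeq table, and 23 of those 37 (62.2%) held at least 1 ISRE-like match on either strand, against 3.57% of the 35116 promoters in the table. The 41 matches lay between 164 bases before and 12 bases after the start; 26 were on the strand of the gene and 15 on the other strand. A GAS-like pattern, TTCNNNGAA, which reads the same on both strands, occurred in 10 of the 37 (27.0%), against 7.66% of all promoters. Overlapping matches of one pattern were each counted. A match describes letters only, and no binding was measured.

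**Figure D1:**
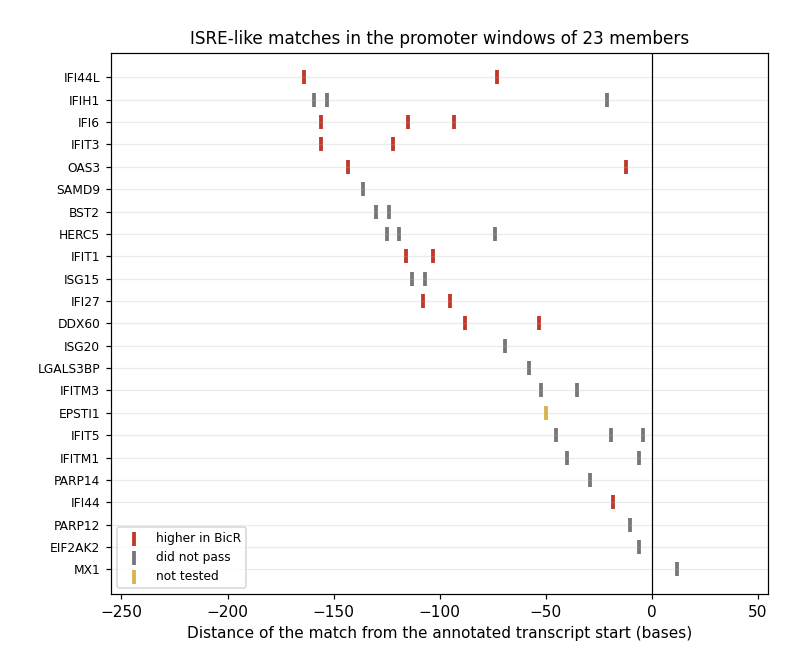
ISRE-like matches in the promoter windows of the 23 genes that held at least 1. Each tick is a match placed by its distance in bases from the annotated start (0), and its colour shows whether the gene was higher in BicR, did not pass the test between the lines or was not tested. Matches occur in genes of all 3 kinds and lie mostly before the start.

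The libraries held between 42162723 counts (BicR with DHT) and 55917016 counts (LNCaP with DHT). Values below are normalised CPM, counts scaled to a common library size, unless named otherwise, and those of a line are given in the order DHT, bicalutamide, ethanol. A count of 3, taken as the floor, corresponded to 0.0552 to 0.0715 CPM. The prostate luminal markers summed to 4127 to 11560 CPM in BicR and 3893 to 9818 CPM in LNCaP, and the 4 basal markers to 0.154 to 0.667 CPM in BicR and 0.440 to 1.07 CPM in LNCaP. Of immune lists, 5 T cell markers summed to 0.0238 to 0.102 CPM in BicR and 0.0766 to 0.180 CPM in LNCaP, 4 B cell markers to 0.142 to 0.215 CPM in BicR and 0.249 to 0.640 CPM in LNCaP, and 5 myeloid markers, led by CD68, to 12.9 to 19.5 CPM in BicR and 22.8 to 29.6 CPM in LNCaP. None of these 3 sums was higher in every BicR library than in every LNCaP library. The 4 endothelial markers summed to 3.03 to 10.8 CPM in BicR and 5.29 to 8.40 CPM in LNCaP, and the 5 fibroblast markers to 25.8 to 27.5 CPM in BicR and 38.2 to 47.9 CPM in LNCaP. The T cell genes CD3G and CD2, the B cell gene MS4A1, the endothelial gene CDH5 and the fibroblast gene COL1A2 were at 0 in every library. KLK3, the androgen-induced gene of prostate-specific antigen, stood at 2600.5, 629.9 and 672 CPM in BicR and 5257, 979 and 1402 CPM in LNCaP, so the DHT library was the highest of each line. The LNCaP ethanol library stood apart in HSPA5, a chaperone of the endoplasmic reticulum, which took 0.790% of its counts, against 0.131% to 0.164% in the other 5.

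The main comparison set the 3 BicR libraries against the 3 LNCaP libraries with treatment as a second term. Many interferon-stimulated genes were higher in BicR, led by the 2-5A synthetases, IFIT1, IFIT2, IFIT3, RSAD2, XAF1, IFI44L and IFI6. Of the 46 genes, 44 reached the minimum of 20 counts on average, 17 were higher in BicR, 1 was lower, and 26 did not pass (edgeR quasi-likelihood test, Benjamini-Hochberg adjusted p under 0.05 over 13885 genes). Over all genes tested, 1.58% were called higher and 2.84% lower. The median log2 fold change was 0.76 over the 44 genes and -0.00 over all genes tested. It was positive for 35 of the 44 (79.5%), against 49.6% of all genes. In bulk RNA, fewer cells expressing a gene and less RNA per cell cannot be told apart.

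Every BicR library lay above every LNCaP library for 29 of the 44 genes and below for 2, UBE2L6 and IFITM2; over all genes tested the shares were 16.6% and 16.8%. The 18 called genes were all among these 31. Without an ethanol library of either line 17 genes were again called higher, 16 of them shared, and without a DHT library 18 were, 16 shared, while the single lower call was lost. Without the bicalutamide library of BicR or that of LNCaP no gene of the whole table was called. The log2 fold changes of the 17 genes ran from 0.74 to 4.88 without the BicR library and from 0.74 to 4.86 without the LNCaP one. Leaving out either library of a treatment rests the line difference on the libraries of the other treatments. The fits without the BicR and without the LNCaP library of a treatment are therefore not separate checks. The 46 genes together took 1345, 1732 and 1692 CPM in BicR, against 1105, 963 and 1096 CPM in LNCaP.

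**Figure D2:**
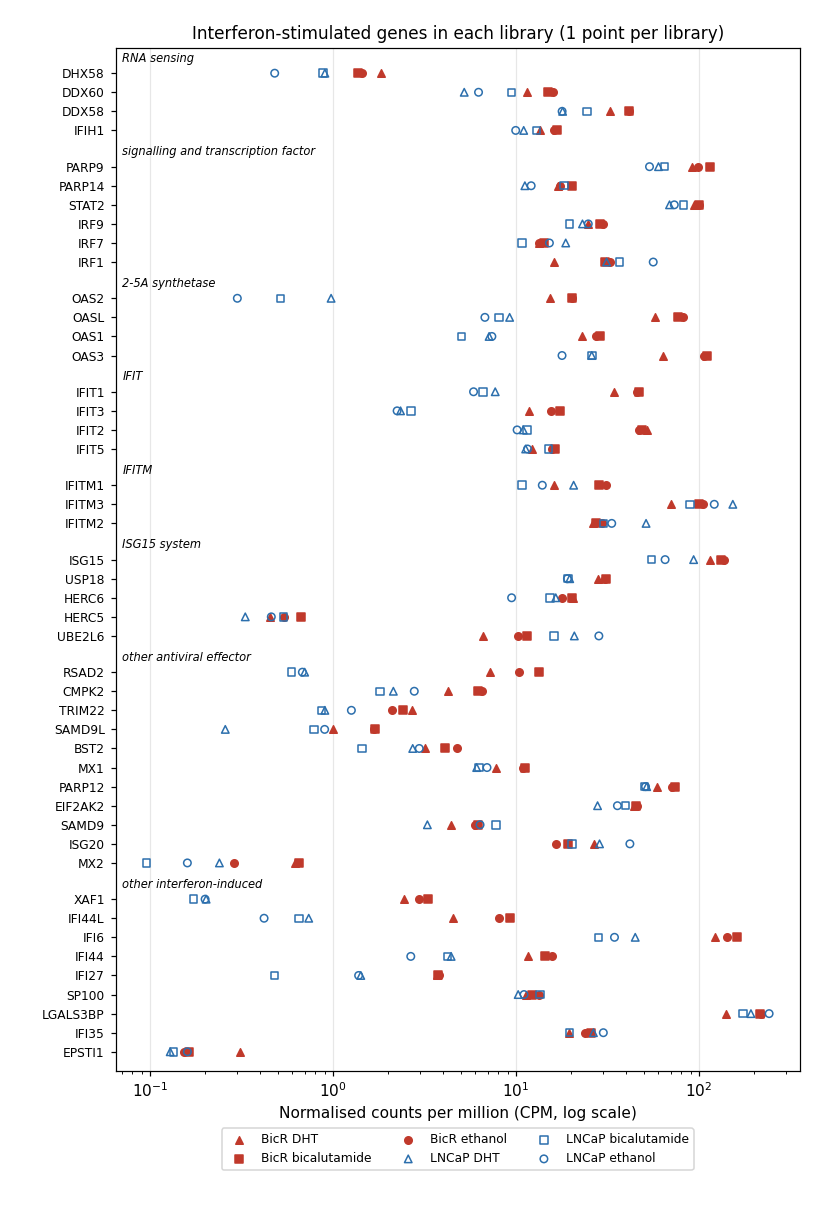
Level of each of the 46 genes in each of the 6 libraries, in normalised CPM on a log axis, grouped by role. Filled red symbols are BicR libraries and open blue symbols are LNCaP libraries. For OAS2 the red symbols lie at 15.3 to 20.3 CPM and the blue at 0.30 to 0.976 CPM, while for IRF7, SP100 and LGALS3BP the colours mix.

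**Figure D3:**
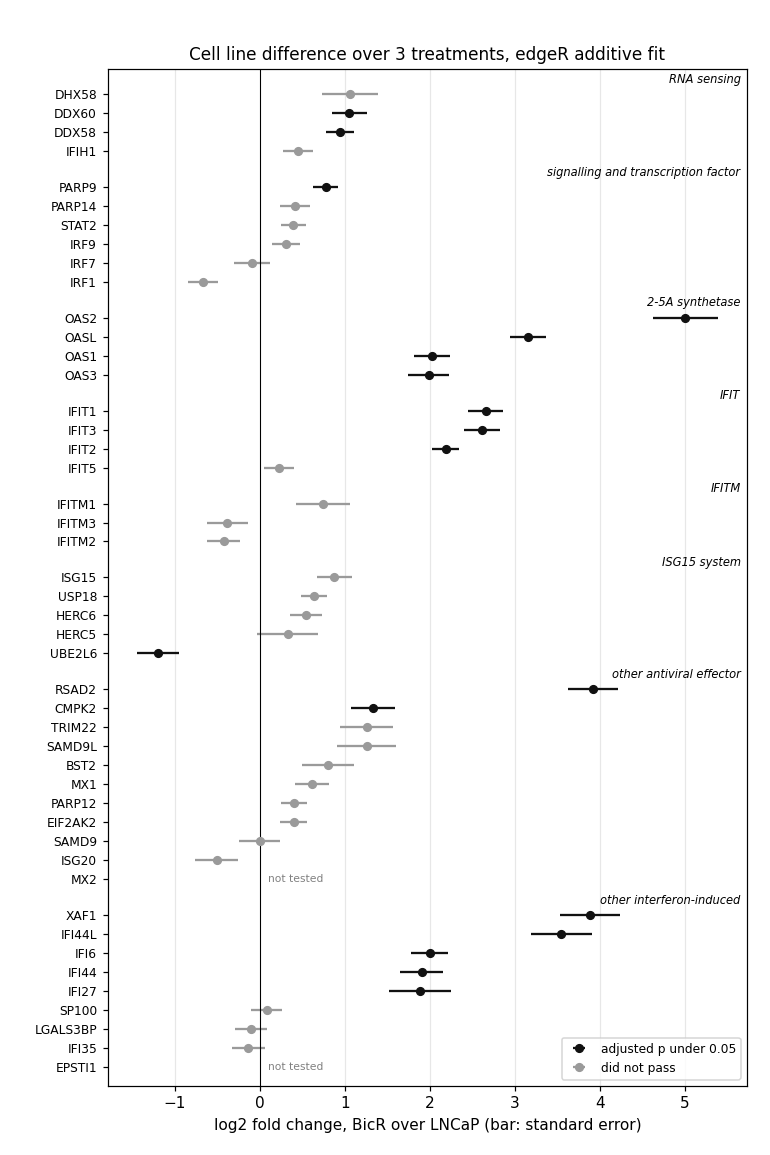
Difference between the lines for each gene, as the log2 fold change of BicR over LNCaP with its standard error, grouped by role. Black points passed the adjusted test and grey points did not; MX2 and EPSTI1 had too few counts to be tested. OAS2 is farthest to the right at 5.01, and UBE2L6 is the only black point left of 0, at -1.20, a call lost in several alternatives.

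Levels per kilobase of gene, the authors' RPKM, order the genes by abundance. In BicR the highest mean RPKM over the 3 treatments belonged to ISG15 (132), IFI6 (113), IFITM3 (94.4) and LGALS3BP (58.1). In LNCaP the highest were IFITM3 (119.5), ISG15 (71.1), LGALS3BP (59.2) and IFITM2 (34.7), with IFI6 at 27.5. The lowest means in BicR were those of EPSTI1 (0.0896), HERC5 (0.108) and MX2 (0.119). In LNCaP the lowest were XAF1 (0.0350), MX2 (0.0367) and EPSTI1 (0.0593). Among the genes with a large difference between the lines, OASL averaged 27.1 RPKM in BicR, against 2.92 RPKM in LNCaP.

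Of the 4 RNA sensors, 2 were higher in BicR and none was lower (median log2 fold change 1.00). DDX58, which encodes the viral RNA sensor RIG-I, stood at 32.6, 41.5 and 41.4 CPM in BicR, against 18.0, 24.5 and 17.9 CPM in LNCaP. No values overlapped, and the log2 fold change was 0.94 ± 0.16, adjusted p = 0.0196 (standard errors follow the ± sign for log2 fold changes here and below, n = 3 libraries per line, edgeR). DDX60, a helicase reported to promote RIG-I signalling, stood at 11.5, 15.01 and 16.0 CPM in BicR, against 5.21, 9.47 and 6.24 CPM in LNCaP (1.05 ± 0.21, adjusted p = 0.0293). The DDX60 call was lost with line as the only term and without a DHT library of either line (edgeR adjusted p of 0.0660 with line alone, 0.0642 without the BicR library and 0.0616 without the LNCaP library). The MDA5 gene IFIH1 and DHX58, which encodes the regulator LGP2, had log2 fold changes of 0.45 ± 0.18 and 1.06 ± 0.33 and did not pass (edgeR adjusted p = 0.165 and 0.0993), although for both every BicR library was above every LNCaP library.

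Among the 6 signalling and transcription factors, 1 was higher in BicR and none lower (median 0.35). PARP9, an ADP-ribosyltransferase family member that works with the ubiquitin ligase DTX3L, stood at 91.0, 115 and 99.0 CPM in BicR, against 60.1, 64.6 and 53.6 CPM in LNCaP (0.77 ± 0.15, adjusted p = 0.03 by edgeR). Its call was lost without an ethanol library of either line (edgeR adjusted p of 0.0919 without that of BicR and 0.0931 without that of LNCaP). STAT2 stood at 94.0, 99.7 and 99.9 CPM in BicR, against 69.0, 82.1 and 73.3 CPM in LNCaP, so its libraries did not overlap. IRF9, its DNA-binding partner, stood at 24.7, 28.8 and 29.97 CPM in BicR, against 23.1, 19.6 and 24.8 CPM in LNCaP, with overlap. Neither gene passed (0.39 ± 0.15, adjusted p = 0.148 for STAT2 and 0.31 ± 0.16, adjusted p = 0.276 for IRF9, edgeR). IRF7, the main regulator of type I interferon genes, overlapped at 13.3, 14.3 and 13.4 CPM in BicR, against 18.7, 10.8 and 15.2 CPM in LNCaP (-0.09 ± 0.21, adjusted p = 0.815 by edgeR). IRF1, a transcription factor that responds strongly to interferon gamma, had a negative log2 fold change of -0.67 ± 0.18 that did not pass (edgeR adjusted p = 0.0669), with 16.1, 30.5 and 32.6 CPM in BicR, against 31.3, 36.7 and 56.2 CPM in LNCaP. Its lowest LNCaP library, that with DHT, lay between BicR libraries. PARP14 did not pass (0.42 ± 0.18, adjusted p = 0.19 by edgeR).

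All 4 2-5A synthetase genes were higher in BicR (median 2.59). These proteins sense double-stranded RNA and make 2-5A, the messenger that activates RNase L, except for OASL, which lacks that activity in humans. OAS2 stood at 15.3, 20.3 and 20.1 CPM in BicR, against 0.976, 0.517 and 0.30 CPM in LNCaP. LNCaP held 53, 27 and 15 raw counts, low but above the floor, and the gene was 32.1-fold higher in BicR (5.01 ± 0.38, adjusted p = 0.000585, edgeR), the greatest fold among the 44 genes. OASL stood at 57.2, 76.3 and 82.2 CPM in BicR, against 9.23, 8.05 and 6.76 CPM in LNCaP (3.16 ± 0.21, adjusted p = 0.00056, edgeR). OAS1 followed at 22.9, 28.9 and 27.2 CPM in BicR, against 7.13, 5.04 and 7.38 CPM in LNCaP. OAS3 stood at 63.6, 111 and 106 CPM in BicR, against 25.9, 26.0 and 17.8 CPM in LNCaP. Neither gene overlapped between lines, and both log2 fold changes were close to 2, at 2.03 ± 0.21 for OAS1 and 1.99 ± 0.24 for OAS3 (edgeR adjusted p = 0.00245 and 0.00433). Within BicR the DHT library was the lowest of the 3 for each of these 4 genes.

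Of the 4 IFIT genes, whose products bind foreign RNA or curb translation, 3 were higher in BicR. IFIT1, which recognises RNA caps lacking a methyl group, stood at 34.5, 47.2 and 46.0 CPM in BicR, against 7.70, 6.61 and 5.86 CPM in LNCaP (2.66 ± 0.21, adjusted p = 0.000585, edgeR). IFIT2 stood at 52.1, 48.9 and 47.1 CPM in BicR, against 10.96, 11.5 and 10.1 CPM in LNCaP (2.19 ± 0.15, adjusted p = 0.000568, edgeR). IFIT3, which stabilises IFIT1, stood at 11.7, 17.5 and 15.6 CPM in BicR, against 2.34, 2.66 and 2.24 CPM in LNCaP (2.61 ± 0.21, adjusted p = 0.000766, edgeR). IFIT5, the next gene to IFIT1 on chromosome 10 and a carrier of 3 ISRE-like matches in the sequence above, overlapped at 12.3, 16.3 and 15.7 CPM in BicR, against 11.3, 15.04 and 11.6 CPM in LNCaP, and did not pass (0.23 ± 0.18, adjusted p = 0.452, edgeR). IFIT2 was the only one of the 17 genes higher in BicR for which the BicR DHT library was not below both others.

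None of the 3 IFITM genes, which encode membrane proteins that block virus fusion, passed (median -0.38). IFITM3 stood at 70.6, 100.03 and 105 CPM in BicR, against 153, 89.1 and 121 CPM in LNCaP. IFITM1 stood at 16.1, 28.6 and 30.8 CPM in BicR, against 20.6, 10.8 and 13.9 CPM in LNCaP, and both genes overlapped between the lines. IFITM2 stood at 26.2, 27.4 and 29.5 CPM in BicR, against 51.4, 30.1 and 33.3 CPM in LNCaP, with every BicR library below every LNCaP library. Their log2 fold changes were 0.74 ± 0.31 for IFITM1, -0.43 ± 0.20 for IFITM2 and -0.38 ± 0.24 for IFITM3 (edgeR adjusted p = 0.187, 0.216 and 0.347). IFITM1 was called higher without a DHT library of either line. These genes are close paralogs, so the authors' counting could have split their reads, and the division between them is uncertain.

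The ISG15 system attaches the ubiquitin-like protein ISG15 to other proteins, and it held the single gene called lower in BicR. UBE2L6, the conjugating enzyme of the system, stood at 6.58, 11.5 and 10.3 CPM in BicR, against 20.8, 16.1 and 28.4 CPM in LNCaP (-1.20 ± 0.25, adjusted p = 0.0335, edgeR). This call was lost with line as the only term (adjusted p = 0.0565), without a DHT library of either line (0.0670 without that of BicR, 0.0793 without that of LNCaP) and without a bicalutamide library of either line (0.0762 without that of BicR, 0.0786 without that of LNCaP). ISG15 itself was high in both lines, at 114, 132 and 137 CPM in BicR, against 93.4, 55.2 and 65.3 CPM in LNCaP, without overlap. Its log2 fold change of 0.88 ± 0.21 just missed the threshold by edgeR (adjusted p = 0.0509), and it was called by DESeq2, by limma on the RPKM values, by edgeR without the count minimum and by edgeR without a DHT library of either line. USP18, the protease that removes ISG15 and damps receptor signalling, did not pass by edgeR (0.63 ± 0.15, adjusted p = 0.0545) but was called by DESeq2, by limma, without the count minimum and with line as the only term. Neither the ligase HERC5 (0.33 ± 0.36, adjusted p = 0.595) nor its relative HERC6 (0.54 ± 0.19, adjusted p = 0.124) passed by edgeR.

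Of 11 other antiviral effectors 10 were tested, 2 were higher in BicR and none lower (median 0.71). RSAD2, which encodes viperin, the maker of a chain-terminating nucleotide, stood at 7.22, 13.4 and 10.3 CPM in BicR, against 0.700, 0.594 and 0.680 CPM in LNCaP (3.92 ± 0.29, adjusted p = 0.000568, edgeR). CMPK2, its neighbour on chromosome 2 and a nucleotide kinase, stood at 4.24, 6.18 and 6.55 CPM in BicR, against 2.14, 1.80 and 2.78 CPM in LNCaP (1.33 ± 0.26, adjusted p = 0.0289, edgeR). Both genes separated the lines completely, RSAD2 by the wider margin. MX1, a GTPase active against influenza viruses, stood at 7.77, 11.2 and 10.9 CPM in BicR, against 6.10, 6.27 and 6.94 CPM in LNCaP, and did not pass (0.61 ± 0.20, adjusted p = 0.112, edgeR). BST2, the tether of budding virions, stood at 3.17, 4.11 and 4.78 CPM in BicR, against 2.73, 1.44 and 2.96 CPM in LNCaP, and also missed the threshold (0.80 ± 0.30, adjusted p = 0.15, edgeR). ISG20, an RNA exonuclease, stood at 26.6, 19.2 and 16.4 CPM in BicR, against 28.6, 20.3 and 41.9 CPM in LNCaP, with overlap (-0.51 ± 0.25, adjusted p = 0.255, edgeR). The others that did not pass ran from -0.00 ± 0.24 for SAMD9 to 1.26 ± 0.35 for SAMD9L and 1.26 ± 0.31 for TRIM22 (edgeR adjusted p = 0.997, 0.0745 and 0.0578). TRIM22 was called by DESeq2, by limma on the RPKM values, without the count minimum and without an ethanol library of either line, and SAMD9L by edgeR without the count minimum. MX2 was under the count minimum, with 26, 32 and 15 raw counts in BicR and 13, 5 and 8 in LNCaP.

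Of 9 other interferon-induced genes 8 were tested, 5 were higher in BicR and none lower (median 1.89). IFI6, a mitochondrial and endoplasmic reticulum protein with antiviral activity against flaviviruses, stood at 123, 161 and 142 CPM in BicR, against 44.8, 28.3 and 34.5 CPM in LNCaP (2.0 ± 0.22, adjusted p = 0.00288, edgeR). XAF1, an antagonist of the apoptosis inhibitor XIAP, stood at 2.43, 3.30 and 2.96 CPM in BicR, against 0.203, 0.172 and 0.200 CPM in LNCaP (3.89 ± 0.35, adjusted p = 0.0013, edgeR). With 102, 162 and 154 raw counts in BicR and 11, 9 and 10 in LNCaP, it was the only tested gene whose mean in LNCaP was under 20 counts, so it entered the test through BicR. IFI44L and IFI44 are neighbours on chromosome 1. IFI44L stood at 4.53, 9.24 and 8.12 CPM in BicR, against 0.737, 0.652 and 0.420 CPM in LNCaP. IFI44 stood at 11.7, 14.4 and 15.7 CPM in BicR, against 4.42, 4.22 and 2.66 CPM in LNCaP. Both passed without overlap (3.55 ± 0.36, adjusted p = 0.00214 for IFI44L and 1.91 ± 0.26, adjusted p = 0.00716 for IFI44, edgeR). IFI27, a small protein of mitochondrial and nuclear membranes, stood at 3.69, 3.74 and 3.78 CPM in BicR, against 1.42, 0.479 and 1.38 CPM in LNCaP (1.88 ± 0.36, adjusted p = 0.0289, edgeR). Its call was lost with line as the only term (edgeR adjusted p = 0.0523). LGALS3BP, a secreted galectin-binding glycoprotein, overlapped at 139.9, 217 and 217 CPM in BicR, against 192, 174 and 242 CPM in LNCaP, and did not pass (-0.10 ± 0.19, adjusted p = 0.773, edgeR). EPSTI1 was close to the floor, with 13, 8 and 8 raw counts in BicR and 7, 7 and 8 in LNCaP.

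The difference between the lines was present under each treatment taken alone, where each side is 1 library and no test is possible. Differences were taken on log2(CPM + 1), where those of genes under a few CPM come out too small. With DHT, 13 of the 44 genes were 2-fold or more higher in BicR than in LNCaP and 2 were 2-fold or more lower (UBE2L6 and IFITM3), against 2.81% and 4.7% of all genes tested. Under bicalutamide 17 were higher and none lower, against 0.684% and 1.27% of all genes. Under ethanol 17 were higher and 2 lower (UBE2L6 and ISG20), against 2.62% and 3.88%. The median difference over the 44 genes was 0.53 under DHT, 0.64 under bicalutamide and 0.65 under ethanol. At 1.5-fold, a threshold added after the data were seen, 20 were higher and 4 lower under DHT (10.9% and 14.5% of all genes), 24 and 0 under bicalutamide (3.31% and 5.69%), and 23 and 3 under ethanol (8.43% and 12.8%).

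Several members lie next to each other in the genome by the order of RefSeq genes (GRCh38.p14). There were 13 pairs with at most 2 coding genes between them. In 6 pairs both genes were higher in BicR: IFI44L and IFI44 on chromosome 1, RSAD2 and CMPK2 on chromosome 2, IFIT2 and IFIT3 and then IFIT3 and IFIT1 on chromosome 10, and OAS1 and OAS3 and then OAS3 and OAS2 on chromosome 12. In 2 pairs only 1 gene passed, IFIT1 beside IFIT5 and PARP9 near PARP14. In the other 5 pairs, among the IFITM genes on chromosome 11 and at MX1, HERC6 and SAMD9, neither gene was called higher. MX2, the neighbour of MX1, was not tested. Taken singly, 17 of the 44 tested members were called higher. Pairs that share a gene are not separate observations, and their number was not compared with that of other neighbouring genes.

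ISRE-like matches were found both in called genes and in genes that were not called. They were present in 8 of the 14 called-higher genes with a promoter (57.1%) and in 14 of the 21 that did not pass (66.7%). UBE2L6, the gene called lower, had none in its window, and EPSTI1, which was not tested, had one. The pattern demands exactly 2 bases between the GAAA copies. The closer-spaced GAAACGAAA was not counted, although it occurs in the windows of OAS1, RSAD2, DDX58 and XAF1, all called higher without a match. The similar GAAATGAAA occurs in the window of IFI35, which did not pass and also had no match. The shares thus depend on this spacing. With the genes just named counted too, the share among called-higher genes would be the larger. The difference between these shares was not tested.

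The rest of the interferon pathway was described by lists of 110 other genes. Of these, 77 were tested, 2 were higher in BicR and 1 was lower (edgeR), with a median log2 fold change of 0.12. Over all genes tested 1.58% were called higher and 2.84% lower, which is also the background for each list below. None of the 21 interferon ligands reached the count minimum: 16 were at 0 in every library, and the highest count of any was 8. That was IL29 (interferon lambda 1), with 2, 8 and 2 raw counts in BicR and 0, 0 and 0 in LNCaP, and IFNB1, the gene of interferon beta, had 4, 6 and 4 in BicR and 2, 4 and 3 in LNCaP. These counts lie near the floor of 3, and whether they differ from it was not tested. In CPM every BicR library lay above every LNCaP library for IL29 and IFNB1 and for no other ligand. For IFNB1 the margin was narrow, with a lowest BicR value of 0.0768 CPM against a highest LNCaP value of 0.0766 CPM.

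None of the 10 tested receptors and proximal signalling genes passed (median 0.05). JAK1, the kinase shared by all interferon receptors, stood at 11.6, 9.68 and 8.89 CPM in BicR, against 14.5, 20.4 and 25.2 CPM in LNCaP. Every BicR library was below every LNCaP library, and the gene missed the threshold (-0.97 ± 0.24, adjusted p = 0.0569, edgeR). JAK2 (0.55 ± 0.25, adjusted p = 0.213), TYK2 (0.03 ± 0.14, adjusted p = 0.924), IFNAR1 (0.39 ± 0.16, adjusted p = 0.19) and IFNAR2 (0.09 ± 0.15, adjusted p = 0.739) did not pass either (edgeR). None of the 12 tested negative regulators passed (median 0.07).

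Of 15 tested nucleic acid sensors and adaptors, 1 was lower in BicR and none higher (median 0.03). It was TMEM173, the gene of the cytosolic DNA adaptor STING, at 1.79, 2.46 and 2.09 CPM in BicR, against 5.67, 4.96 and 7.06 CPM in LNCaP (-1.47 ± 0.26, adjusted p = 0.0219, edgeR). Of 40 further tested interferon-induced genes, 2 were higher in BicR and none lower (median 0.25). DTX3L, the partner of PARP9, stood at 150.4, 160.3 and 148 CPM in BicR, against 79.8, 90.4 and 67.5 CPM in LNCaP (0.96 ± 0.16, adjusted p = 0.0166, edgeR). GBP4, a guanylate-binding protein, stood at 0.787, 1.83 and 1.73 CPM in BicR, against 0.331, 0.192 and 0.240 CPM in LNCaP (2.43 ± 0.46, adjusted p = 0.0267, edgeR). With 33, 90 and 90 raw counts in BicR and 18, 10 and 12 in LNCaP, GBP4 entered the test through BicR, the line where it is high. CXCL10, a chemokine, had no count in the LNCaP ethanol library and missed the threshold (edgeR adjusted p = 0.0526).

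The question of whether androgen changed these genes was asked first over both lines, with line as a second term. No member rose or fell with DHT by the edgeR adjusted test, against 0.158% of all genes higher and 0.0072% lower. Without adjustment (p under 0.05) none of the 44 was higher and 3 were lower, IRF1, SAMD9L and SAMD9, against 2.74% and 2.89% of all genes. IRF1 had the lowest p of the 44, with 16.1, 30.5 and 32.6 CPM in BicR and 31.3, 36.7 and 56.2 CPM in LNCaP. Its DHT library was the lowest in each line. The log2 fold change was -0.92 ± 0.21 and the edgeR adjusted p was 0.325, whereas DESeq2, run as an alternative, called it lower with an adjusted p of 0.0436; limma on the RPKM values called none. The median log2 fold change was -0.11 over the 44 genes and 0.01 over all genes.

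Within BicR, where each treatment is 1 library and no test is possible, the DHT library was below both the ethanol and the bicalutamide library for 39 of the 44 genes and above both for 5. Over all genes tested the shares were 41% below and 42% above. The same DHT library enters both comparisons, so they are not separate observations. The median difference from ethanol was -0.27 on log2(CPM + 1), against 0.00 over all genes, and that from bicalutamide was -0.33, against 0.00. On log2(CPM + 1) no member reached 2-fold in either direction (background 1.45% higher and 0.922% lower against ethanol, 1.43% higher and 1.04% lower against bicalutamide). By the plain ratio, among the tested members, IRF1 against ethanol and IFI44L against bicalutamide, at 0.490 (95% interval 0.412 to 0.582), were just past it. MX2 and EPSTI1, not tested, were higher with DHT, on 26 and 13 counts against 15 and 8 with ethanol. Their ratios to ethanol were 2.15 (95% interval 1.098 to 4.37) for MX2 and 2.02 for EPSTI1. On the same log2 scale the count past 1.5-fold was 5 lower and 1 higher than with ethanol, against 4.54% and 4.23% of all genes. Relative to bicalutamide the 1.5-fold count was 7 lower and 0 higher, against 4.49% and 3.82% of all genes; the 7 added RSAD2 and UBE2L6 to the 5.

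The 5 genes lower by at least 1.5-fold on log2(CPM + 1) in BicR were IRF1, IFITM1, IFI44L, OAS3 and LGALS3BP. For IRF1 the ratio of DHT to ethanol was 0.495 (95% interval 0.452 to 0.541), the interval covering counting error only and no difference between cultures. For IFITM1, with 16.1, 28.6 and 30.8 CPM, it was 0.522 (95% interval 0.477 to 0.572). OAS3, with 63.6, 111 and 106 CPM, had a ratio of 0.599 (95% interval 0.572 to 0.627). LGALS3BP and IFI44L also had lower values with DHT, and in both the bicalutamide and ethanol libraries lay close together. Their ratios were 0.645 (95% interval 0.625 to 0.665) for LGALS3BP and 0.558 (95% interval 0.468 to 0.663) for IFI44L. By the plain ratio SAMD9L, UBE2L6, CMPK2 and BST2 were also past 1.5-fold, at 0.599 to 0.663.

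The 5 genes with the DHT library on top in BicR were ISG20, TRIM22, DHX58, HERC6 and IFIT2. ISG20 was the one past 1.5-fold, with a DHT to ethanol ratio of 1.62 (95% interval 1.48 to 1.77). The intervals of TRIM22, 1.29 (95% interval 0.981 to 1.69), and DHX58, 1.27 (95% interval 0.915 to 1.78), included 1. HERC6 had a ratio of 1.14 (95% interval 1.04 to 1.25) and IFIT2 one of 1.105 (95% interval 1.04 to 1.17). Of the 17 genes higher in BicR than LNCaP, 16 had their lowest BicR value with DHT.

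Within LNCaP no such common position of the DHT library appeared. It was above both other libraries for 18 of the 44 genes and below both for 11, against 33.3% and 32.5% of all genes. The median difference from ethanol was 0.01 on log2(CPM + 1), the same as over all genes, with 24 differences positive and 20 negative. On that scale none reached 2-fold, against 1.4% higher and 1.19% lower of all genes, while by the plain CPM ratio the scarce genes OAS2 and SAMD9L were past it, as given below. At 1.5-fold 3 genes were higher (HERC6, IFITM2 and OAS2) and 3 lower (IRF1, SAMD9 and SAMD9L), against 4.88% and 5.29% of all genes. The LNCaP ethanol library is the one that stood apart in HSPA5, and the part of that in these differences was not tested.

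OAS2 showed a DHT to ethanol ratio of 3.25 (95% interval 1.81 to 6.22) in LNCaP, on 53 counts with DHT against 15 with ethanol. HERC6 had a ratio of 1.74 (95% interval 1.56 to 1.95) and IFITM2 one of 1.54 (95% interval 1.45 to 1.64), with IFI44 at 1.66 (95% interval 1.34 to 2.07) and IFITM1 at 1.48 (95% interval 1.35 to 1.63). At the lower end IRF1 had a ratio of 0.556 (95% interval 0.523 to 0.591). SAMD9, a factor that restricts poxviruses, had one of 0.515 (95% interval 0.427 to 0.621), and its paralog SAMD9L one of 0.286 (95% interval 0.145 to 0.531), on 14 counts with DHT against 45 with ethanol. ISG20 and UBE2L6 had ratios of 0.683 (95% interval 0.639 to 0.729) and 0.734 (95% interval 0.679 to 0.795). Against bicalutamide, with the same LNCaP DHT library, no member was 2-fold higher and SAMD9 was 2-fold lower on log2(CPM + 1), against 1.58% and 0.893% of all genes. By the plain ratio, among the tested members, IFI27, at 2.96 (95% interval 1.86 to 4.85), and SAMD9L, at 0.328 (95% interval 0.165 to 0.615), were past 2-fold too. MX2, not tested, had 13 counts with DHT against 5 with bicalutamide. At 1.5-fold on log2(CPM + 1), 8 were higher than with bicalutamide (the 3 IFITM genes, BST2, IFI6, IFI27, IRF7 and ISG15) and 3 lower (SAMD9, DDX60 and PARP14), against 8.86% and 7.03% of all genes.

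Set side by side, the counting interval of the DHT to ethanol ratio lay below 1 for 33 of the 44 genes in BicR and 11 in LNCaP, and above 1 for 3 in BicR and 15 in LNCaP. Over all genes tested the shares below 1 were 29.6% in BicR and 33.2% in LNCaP, and those above 1 were 31.2% in BicR and 35.6% in LNCaP. It lay below 1 in both lines for 9 genes: DDX60, IRF1, STAT2, UBE2L6, CMPK2, SAMD9, SAMD9L, IFI35 and LGALS3BP. HERC6 alone lay above 1 in both. The shares over all genes were 10.7% below 1 in both lines and 11.1% above 1 in both. The intervals lay on opposite sides for 13 members, 12 of them below 1 in BicR and above 1 in LNCaP, against 10.9% of all genes, and 1 the other way, against 12.2%. Among the 9, the intervals of the lines overlapped for IRF1, with ratios of 0.495 in BicR and 0.556 in LNCaP. They also overlapped for DDX60, STAT2, UBE2L6, CMPK2, SAMD9, SAMD9L and IFI35, so IRF1 was not alone in this. Those of LGALS3BP did not overlap.

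**Figure D4:**
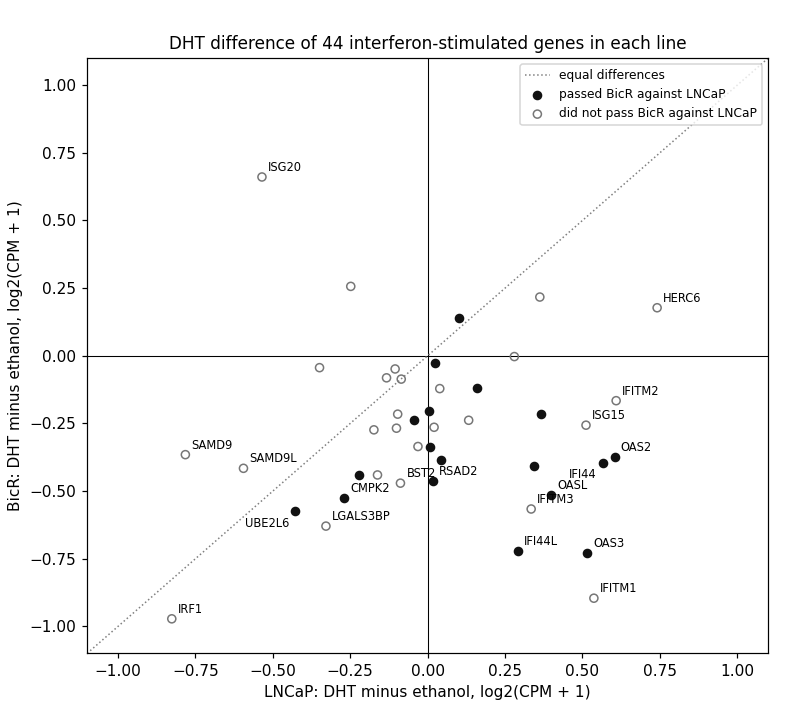
Difference of the DHT library from the ethanol library for the 44 tested genes, on log2(CPM + 1), with LNCaP on the horizontal axis and BicR on the vertical axis. Filled points are genes that passed the test between the lines, and the dotted line marks equal differences. Most points lie below the horizontal zero line, with 39 of 44 negative in BicR, while they spread to both sides of the vertical one, with 24 positive in LNCaP.

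Bicalutamide, an antagonist of the androgen receptor, was compared with ethanol, a setting with little androgen in either library. Over both lines no member passed the edgeR adjusted test in either direction, and none had an unadjusted p under 0.05; DESeq2 and limma on the RPKM values likewise called none of the 44. No gene of the whole table was called higher or lower by edgeR (0% and 0%). The median log2 fold change of the 44 genes was 0.05.

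In BicR the bicalutamide and ethanol libraries were close, and no tested member differed by 1.5-fold on log2(CPM + 1), against 0.0504% higher and 0.108% lower of all genes. The differences of the tested members ran from -0.18 to 0.34 on that scale. MX2, not tested, had 32 counts with bicalutamide against 15 with ethanol. The highest differences were those of RSAD2, PARP9 and ISG20, with ratios of bicalutamide to ethanol of 1.30 (95% interval 1.15 to 1.46) for RSAD2, 1.17 (95% interval 1.12 to 1.21) for PARP9 and 1.17 (95% interval 1.06 to 1.28) for ISG20. The lowest differences had ratios of 0.860 (95% interval 0.711 to 1.04) for BST2, 0.917 (95% interval 0.821 to 1.02) for SP100, a nuclear body protein, and 0.921 (95% interval 0.832 to 1.02) for IFI44.

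In LNCaP the spread between the same treatments was wider, for these genes as for all. On log2(CPM + 1), ISG20 was the only member at least 2-fold lower with bicalutamide and none was 2-fold higher, against 1.52% and 1.08% of all genes. Past 1.5-fold, 6 were lower (ISG20, UBE2L6, BST2, IFI27, IRF1 and IFI35) and 1 higher (HERC6), against 7.94% and 6.52% of all genes. The ratio of ISG20 was 0.483 (95% interval 0.449 to 0.521). By the plain ratio IFI27, at 0.347 (95% interval 0.210 to 0.556), and BST2, at 0.486 (95% interval 0.363 to 0.645), were also past 2-fold, and UBE2L6 had 0.568 (95% interval 0.521 to 0.619). The highest differences on log2(CPM + 1) were those of HERC6, PARP14 and DDX60, with ratios of 1.62 (95% interval 1.44 to 1.82) for HERC6, 1.52 (95% interval 1.37 to 1.68) for PARP14 and 1.52 (95% interval 1.31 to 1.75) for DDX60. Higher ratios belonged to scarcer genes, DHX58 at 1.84 (95% interval 1.098 to 3.15) and OAS2 at 1.72 (95% interval 0.885 to 3.49). These rest on the same LNCaP ethanol library as the DHT differences of that line.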

How the data were processed

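RNA sequencing was analysed in 6 libraries, grouped by the labels into 2 lines and 3 treatments. The authors deposited raw read counts and RPKM values (reads scaled by gene length and library size) per gene symbol in one table, per the file headers. Per the labels' protocols, total RNA was sequenced on the SOLiD 3 Plus platform, and per the submitters' processing notes reads were placed on hg19. Aligner, counter, annotation and strand setting: not given in the sources used here. Thus overlapping or antisense genes cannot be told apart. The 46 members, the pathway and marker lists and the tests were chosen with earlier results of these data known.

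A gene was tested where its counts averaged 20 or more (13885 of 21512; 2988 were at 0 in every library). Counts were scaled by TMM and fitted with edgeR 4.0.16 (R 4.3.3) by a quasi-likelihood model with line and treatment as terms. The fit left 2 residual degrees of freedom per gene, and moderation over all genes tested added 6.8 prior degrees of freedom. The p-values were adjusted over all genes tested by the Benjamini-Hochberg method at 0.05. The standard errors are not an edgeR output. They were taken as the absolute log2 fold change divided by the square root of its quasi-likelihood F statistic. Pairs of single libraries were described by differences of log2(CPM + 1) at 2-fold and by ratios with exact 95% counting intervals. These intervals cover counting error only, since each side is a single library. Reads carried no molecular identifiers, so duplicates were not told apart and the intervals may be too narrow. The code was tested on simulated data. DESeq2 1.42.0, limma 3.58.1 on log2(RPKM + 0.1), other scalings, filters and designs, and leaving out each library were the alternatives. The text names the genes with the 14 largest passing line differences, the extremes of each treatment difference, and a set of well-known members. A pathway gene that this rule names is not reported here.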

Additional observations from a re-analysis of the deposited data

Results flagged for a closer look

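For 13 genes the counting intervals of the DHT to ethanol ratio excluded 1 on opposite sides in the lines, each line having 1 library per treatment, so the difference between the lines' responses was not tested. Over all genes tested, intervals lay below 1 in BicR and above 1 in LNCaP for 10.9% and the other way for 12.2%. The values below are the DHT minus ethanol difference on log2(CPM + 1) in BicR minus that in LNCaP. In 12 genes DHT was below ethanol in BicR and above it in LNCaP, which makes the value negative. Among the 2-5A synthetases it was -1.25 for OAS3, -0.98 for OAS2 and -0.91 for OASL. For the IFITM genes it was -1.43 for IFITM1, -0.90 for IFITM3 and -0.77 for IFITM2. The other negative values were -1.01 for IFI44L, -0.96 for IFI44, -0.77 for ISG15, -0.75 for IFIT1, -0.58 for IFI6 and -0.28 for PARP9. ISG20 alone had the reverse pattern, at 1.20. Each value in LNCaP rests on the ethanol library in which HSPA5 took 0.790% of the counts, and its part in these differences was not tested.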

How the results depend on the processing

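The number of members higher in BicR, 17, was 16 to 21 under other scalings, tools, filters and designs, and 0 to 18 with single libraries left out. The members lower in BicR, 1, became 2 with DESeq2 and without a count minimum, 0 with line as the only term, and 0 to 1 with libraries left out. The medians over members ranged with libraries left out from 0.61 to 0.92 between lines, from -0.32 to 0.046 with DHT and from -0.055 to 0.13 with bicalutamide.

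Pathway genes higher in BicR, 2, became 5 with DESeq2, with limma and without a count minimum, 1 with a mean of at least 100 counts, and 0 to 3 with libraries left out. Those lower, 1, became 2 with DESeq2 and without a count minimum, and 0 to 2 with libraries left out. With DHT, pathway genes lower were 0 to 2 with libraries left out, and DESeq2 called 1 member lower. With bicalutamide, pathway genes higher were 0 to 1 and lower 0 to 1. Of 1628 single-gene values under the alternatives, 1550 stayed on their side of the threshold, 27 newly passed it and 51 no longer did. The sign differed from the reported one in 107, 93 of them for a treatment and 14 for the line; none passed the test in either setting, and their reported log2 fold changes were at most 0.61 in size.

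For single pairs of libraries, a pseudocount of 0.1 gave, for DHT against ethanol, 1 member lower in BicR and 1 higher and 1 lower in LNCaP. For DHT against bicalutamide it gave 1 lower in BicR and 1 higher and 2 lower in LNCaP, and for bicalutamide against ethanol 2 lower in LNCaP. A pseudocount of 5 gave 0 lower in LNCaP for bicalutamide against ethanol and for DHT against bicalutamide. At 1.5-fold, a threshold chosen after seeing the data, DHT against ethanol gave 1 higher and 5 lower in BicR, and 3 higher and 3 lower in LNCaP. DHT against bicalutamide gave 7 lower in BicR, and 8 higher and 3 lower in LNCaP; bicalutamide against ethanol gave 1 higher and 6 lower in LNCaP, and BicR against LNCaP under DHT 20 higher and 4 lower. Relative log expression factors for the pairs were also added after seeing the data. The cause of these changes was not tested.

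No paired analysis was possible because the groups share only 1 replicate number; the reported fit itself matches the lines by treatment. Depth limited EPSTI1, MX2 and the interferon ligands, which were near or under the count minimum.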
